A study of Homo sapiens with 2 samples.

Results

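Chromatin accessibility was profiled by ATAC-seq, in which the Tn5 transposase cuts open DNA and marks it for sequencing, in SUM159 cells, an established triple-negative breast cancer line of the claudin-low, mesenchymal type. The regions described are the wide distal peaks: peaks of the No gRNA list on chromosomes 1 to 22 and X that were at least 600 bp wide, whose summit lay more than 10 kb from every GENCODE protein-coding transcript start, and that overlapped a peak of the All gRNA list by at least 1 bp. They numbered 3804 of 67868 peaks on those chromosomes. Both groups were SUM159 cells transduced with pLV-KRAB, a lentiviral vector for dCas9 fused to the KRAB repressor domain. The No gRNA cells carried no targeting guide (the empty vector control), and the All gRNA cells carried 4 guides against the promoter of ZEB1, a repressor that drives the epithelial-mesenchymal transition. Both populations were grown in medium with insulin and hydrocortisone, and each gave 1 library, so no comparison between them has a replicate check and the intervals below cover counting error only. Transduced cells were selected with puromycin, and whether the ATAC-seq cells were a pool or a clone is not given in the sources used here.

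An enhancer is a stretch of DNA away from gene starts where transcription factors bind, displace nucleosomes and raise transcription of a gene that may lie far off. Open chromatin marks such elements but also insulators and the starts of non-coding RNAs, so a wide distal ATAC-seq peak is a candidate enhancer and no more. In mesenchymal breast cancer cells, distal open chromatin is known for binding AP-1, the FOS and JUN factors that answer growth signals, together with TEAD, the DNA-binding partner of YAP and TAZ, and RUNX factors.

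The members were chosen by width, position and overlap, so these measures are a description. Of 11352 wide peaks in the No gRNA list, 3889 were distal, and 85 of those (2.19%) overlapped no All gRNA peak and were left out. The 85 were low, with a median summit pileup of 15.0. Summit pileup is the number of fragments (reads extended over their cut sites) stacked at the highest point of a peak, and it was recovered as a whole number for every peak. Members made up 12.5% of the 30410 distal peaks found in both lists. The 5 narrowest members were all 600 bp wide, with pileups of 13 to 70, and the 5 widest distal shared peaks outside the rule were all 599 bp wide, with pileups of 26 to 90. Only 260 members (6.83%) reached 1000 bp.

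Promoter peaks (summit within 1 kb of a protein-coding start) were checked against the label of the cells. All 6 mesenchymal markers looked at (VIM, CD44, AXL, FN1, CAV1 and SPARC) had a promoter peak in both lists. Of 9 epithelial or luminal markers, 5 had one in each list. EPCAM, GATA3, KRT8 and KRT18 had one in both, CLDN4 only in No gRNA and CLDN7 only in All gRNA. CDH1, ESR1 and CLDN3 had none in either. None of 7 markers of blood, endothelial, liver and glial cells had a promoter peak.

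Sequence came from the hg38 genome. In each window, 300 bases of the plus strand that end 100 bases after the summit, capitals mark matches on either strand to AP-1 TGACTCA, to TEAD ACATTCC, to RUNX TGTGGTT, to the ZEB1 and SNAI E-box CAGGTG, to another E-box CAGCTG or to SP/KLF GGGCGGGG. The first pair shows the widest member that is neither near MYC nor in repeated sequence, and a member among the 10 of highest fold, in an intron of OSMR, the oncostatin M receptor gene. The former, in an intron of CAPRIN2, also had its summit 0.108 kb from the start of a gene that is not protein-coding.
CAPRIN2 intron, chr12:30795151-30795450: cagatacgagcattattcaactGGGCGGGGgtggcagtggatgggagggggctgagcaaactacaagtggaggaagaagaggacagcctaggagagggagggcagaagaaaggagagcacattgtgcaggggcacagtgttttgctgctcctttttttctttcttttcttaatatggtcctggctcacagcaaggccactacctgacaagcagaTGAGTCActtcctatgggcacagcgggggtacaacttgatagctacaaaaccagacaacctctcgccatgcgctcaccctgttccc
OSMR intron, chr5:38872262-38872561: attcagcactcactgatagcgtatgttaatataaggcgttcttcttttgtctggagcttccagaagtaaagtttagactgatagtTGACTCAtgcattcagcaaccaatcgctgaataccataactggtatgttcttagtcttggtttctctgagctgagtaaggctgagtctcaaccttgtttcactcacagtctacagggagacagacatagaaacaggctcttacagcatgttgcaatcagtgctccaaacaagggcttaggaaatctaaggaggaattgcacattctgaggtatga
The next pair holds an AP-1 match and was lower in the All gRNA list. The first is nearest ATXN3L and among the 10 of highest fold, and the second lies in an intron of SLC35F3 and had the lowest ratio of all members.
nearest ATXN3L, chrX:13398559-13398858: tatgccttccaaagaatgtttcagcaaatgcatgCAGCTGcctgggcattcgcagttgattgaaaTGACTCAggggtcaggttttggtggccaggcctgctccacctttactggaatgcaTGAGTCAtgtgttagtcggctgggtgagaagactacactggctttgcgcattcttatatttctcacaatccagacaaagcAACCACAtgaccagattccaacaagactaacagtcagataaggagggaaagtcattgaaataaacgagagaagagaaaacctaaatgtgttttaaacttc
SLC35F3 intron, chr1:234149303-234149602: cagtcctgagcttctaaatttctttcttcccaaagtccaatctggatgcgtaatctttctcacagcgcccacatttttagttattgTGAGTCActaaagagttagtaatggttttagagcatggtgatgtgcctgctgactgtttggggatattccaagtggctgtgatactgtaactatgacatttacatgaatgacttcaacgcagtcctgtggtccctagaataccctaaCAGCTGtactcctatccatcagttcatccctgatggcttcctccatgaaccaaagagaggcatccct
The following pair lies at the start of a non-coding RNA. The first, nearest MRPS5, was among the 5 members that rose most, and the second, at the start of DANCR and nearest the protein-coding gene ERVMER34-1, had the fourth highest fold.
nearest MRPS5, chr2:95076794-95077093: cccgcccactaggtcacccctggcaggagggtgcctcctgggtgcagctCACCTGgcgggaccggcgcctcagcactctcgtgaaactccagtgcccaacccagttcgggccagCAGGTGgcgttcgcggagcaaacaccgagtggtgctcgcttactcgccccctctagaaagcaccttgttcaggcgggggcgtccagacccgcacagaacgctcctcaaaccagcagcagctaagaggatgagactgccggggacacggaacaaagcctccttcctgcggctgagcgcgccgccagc
DANCR start, chr4:52712208-52712507: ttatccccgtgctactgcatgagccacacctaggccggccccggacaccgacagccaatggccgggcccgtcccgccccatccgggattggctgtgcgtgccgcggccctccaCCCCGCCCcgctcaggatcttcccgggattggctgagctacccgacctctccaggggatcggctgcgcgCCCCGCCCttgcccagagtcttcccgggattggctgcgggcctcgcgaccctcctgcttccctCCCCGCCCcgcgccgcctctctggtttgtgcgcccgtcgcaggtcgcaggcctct
The last pair was picked after values were seen, as the members with the most AP-1 and the most TEAD matches, which follow each other in rows of similar units.
AP-1 array in AFG3L1P, nearest DBNDD1, chr16:89994825-89995124: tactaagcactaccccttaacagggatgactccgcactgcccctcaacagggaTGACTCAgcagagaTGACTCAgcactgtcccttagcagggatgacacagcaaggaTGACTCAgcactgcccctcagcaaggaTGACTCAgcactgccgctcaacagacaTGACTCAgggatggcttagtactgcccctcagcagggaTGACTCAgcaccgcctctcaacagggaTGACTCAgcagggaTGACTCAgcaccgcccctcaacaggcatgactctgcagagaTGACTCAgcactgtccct
TEAD array in CLPTM1L intron, chr5:1328010-1328309: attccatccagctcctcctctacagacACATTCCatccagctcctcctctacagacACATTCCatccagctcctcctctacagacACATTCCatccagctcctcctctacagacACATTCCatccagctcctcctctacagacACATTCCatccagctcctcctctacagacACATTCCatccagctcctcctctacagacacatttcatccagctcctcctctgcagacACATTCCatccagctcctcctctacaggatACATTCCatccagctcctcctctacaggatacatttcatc

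The wide distal peaks were taller than narrower distal peaks and lower than wide peaks near gene starts. Their median width was 698 bp (range 600 to 1771), against 336 bp for the 26606 narrower distal shared peaks and 773 bp for the 7416 wide shared peaks within 10 kb of a start. The median summit pileup was 43.0 in the No gRNA list, with the middle 50% between 28.0 and 69.0 and a range of 7 to 2181. Narrower distal peaks had a median of 18.0 and wide peaks near starts one of 75. The fold over local background, as the authors' caller gives it, had a median of 12.8 in members, 9.09 in narrower distal peaks and 15.1 near starts. The median local background was 2.36, 0.980 and 3.96 fragments. Peaks were called without a control, so a peak's own reads can enter its local background. Whether the regions around wider peaks differ apart from that was not tested. In the All gRNA list the members had a median pileup of 28.0 (range 4 to 1407), which equals 37.7 at the depth of the No gRNA library.

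Of the 3804 members, 3333 had 1 partner in the All gRNA list, 463 had 2 and 8 had 3. The summit of the strongest partner lay within 100 bp of the member's own in 3016 members (79.3%). The partners' summed width was at least 600 bp for 2078 members (54.6%). The median ratio of summed width, All gRNA to No gRNA, was 0.867, and 3078 members (80.9%) were shorter in All gRNA. That direction depended on the list used for the rule: when members were picked from the All gRNA list in the same way, giving 2612 regions, the median ratio was 1.01. Among the 1809 members that met the rule in both lists it was 0.973.

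Summit heights were compared as the All gRNA to No gRNA ratio of pileups after scaling for depth, and a peak was counted as past 2-fold when its exact 95% counting interval also excluded 1. Most members were lower in the All gRNA library. The median log2 ratio was -0.23 (middle 50% from -0.53 to 0.09), and 2634 members (69.2%, Wilson 95% interval 67.8 to 70.7) had a ratio below 1. Past 2-fold, 192 members (5.05%) were lower and 32 (0.841%) were higher. Over all 51122 shared peaks, 3.25% were past 2-fold lower and 2.89% past 2-fold higher, with a median log2 ratio of -0.10. Wide shared peaks within 10 kb of a start had the same median as members, -0.23, and 76.8% of them were lower. Fewer of them, 2.06%, were past 2-fold lower. Narrower distal peaks had a median of -0.01, and 50.3% were lower. The lower median was thus not particular to distal peaks among the wide ones. The rule used the No gRNA list to pick members. With the lists exchanged, the median log2 ratio was -0.14, and 66 regions were past 2-fold lower and 64 higher, so the excess of lower over higher counts was not seen there. With heights scaled by the median of all shared peaks, 122 members were past 2-fold lower and 53 higher.

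**Figure D1:**
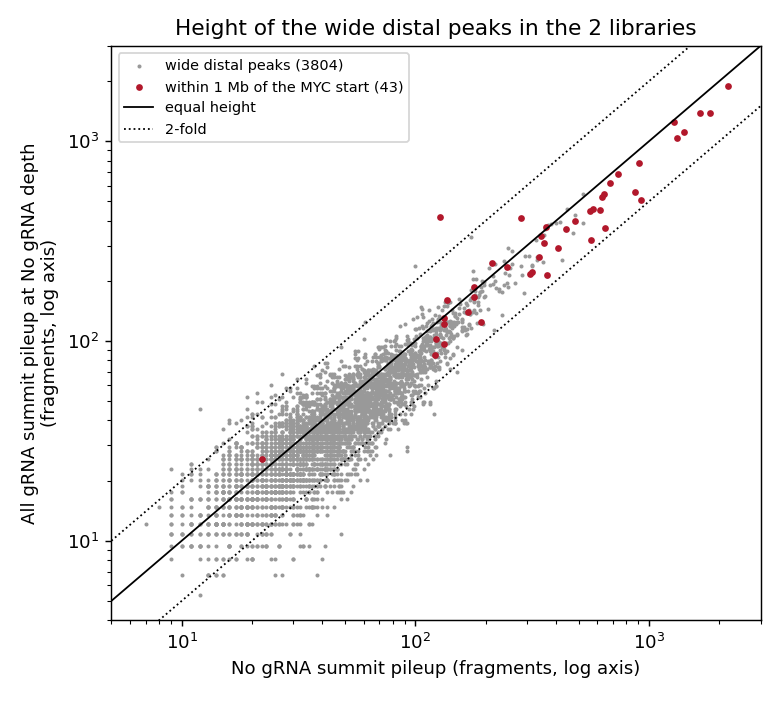
Summit pileup of each wide distal peak in the No gRNA list (x) and in the All gRNA list at the same depth (y), in fragments on log axes, with lines for equal height and for 2-fold. Most points lie just under the line of equal height, and the 43 peaks within 1 Mb of the MYC start (red) reach 2181.

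The ratio by height depended on which height set the classes. By No gRNA pileup, which is also the denominator of the ratio, the median log2 ratio was 0.13 in the 495 members of up to 20 fragments and -0.30 in the 422 members above 100, with 41.8% and 87.4% lower in All gRNA. By All gRNA pileup at the same depth, the numerator, the order was the opposite, with -0.49 in the lowest and -0.14 in the tallest class. By the geometric mean of both, the 6 classes of members had medians between -0.19 and -0.27 without an order, and 62.5% to 82.1% of members were lower. Narrower distal peaks by the same mean went from 0.07 in the lowest class to -0.23 in the tallest. Classes by All gRNA pileup or the mean were added after seeing the data. With 1 library a group, an effect of the ZEB1 guides and a difference between the libraries cannot be told apart.

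The 5 members that rose most in All gRNA were led by 1 nearest BMP2, a bone morphogenetic protein of the TGF-beta family (chr20:7151770-7152450, 384 kb from its start and within LINC01428). Pileups there were 12 without guides and 34 with them, which after scaling is a ratio of 3.81 (95% interval 1.93 to 8.09). The next lay 66.4 kb from the nearest start of MYC, the growth-promoting transcription factor, at chr8:127668517-127669287. Its pileups were 128 and 311, a ratio of 3.27 (2.65 to 4.05), and this tallest peak of the 5 had the narrowest interval. The members nearest MRPS5, SLC20A1 and EFNA5 rose from pileups of 9 to 21 in No gRNA to 17 to 41 in All gRNA, with ratios of 2.54 to 2.76. The window nearest MRPS5 printed above holds 2 CAGGTG matches, while those nearest BMP2, SLC20A1 and EFNA5 hold none.

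Members that fell most were led by the intronic peak of SLC35F3, a solute carrier gene (chr1:234149045-234149717), which had 38 fragments in No gRNA but 5 in All gRNA, a ratio of 0.177 (0.0544 to 0.451). The member nearest RSU1, in an intron of CUBN (chr10:16965928-16966556), had 40 and 6, a ratio of 0.202 (0.0699 to 0.479). Those nearest CAMK1G, ZNF366 and ACTA1 had 27 to 48 in No gRNA and 5 to 8 in All gRNA, with ratios of 0.224 to 0.249. All 5 were of middling height in No gRNA and close to the lowest All gRNA pileups among members. These 10 were picked for their ratio out of 3804, and their intervals carry no correction for that choice.

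By position, 2365 members (62.2%, 60.6 to 63.7) lay between protein-coding genes, 1335 (35.1%, 33.6 to 36.6) in an intron and 104 (2.73%) in an exon. Narrower distal peaks were between protein-coding genes less often, at 57.4% (56.8 to 58.0), but with genes of every biotype the shares were 37.9% (36.4 to 39.5) of members and 37.7% (37.1 to 38.3) of narrower distal peaks. The median distance to the nearest protein-coding start was 55.1 kb, against 56.9 kb for narrower distal peaks, and 1245 members (32.7%) were more than 100 kb away. Many members were near the start of some other transcript. The start of a gene that is not protein-coding lay within 1 kb of 612 members (16.1%, 15.0 to 17.3), against 6.57% (6.28 to 6.88) of narrower distal peaks, and 493 of the members had a lncRNA start there. Counting transcripts of every biotype, 1672 of the 3804 members were within 10 kb of a start.

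The 612 members at non-coding starts differed in sequence and height from the other 3192. Their median pileup was 57.0 against 42.0, their median GC content within 100 bp of the summit 59.7% against 46.3%, and their median number of CpG sites in that window 12.0 against 2.00. The SP/KLF motif, the GC box of many promoters, was found in 18.1% (15.3 to 21.4) against 3.76% (3.15 to 4.48). AP-1 was found in 13.6% (11.1 to 16.5) against 30.4% (28.8 to 32.0), and TEAD in 2.12% (1.25 to 3.60) against 7.39% (6.54 to 8.35). The median log2 ratio was -0.23 in both. Of the 10 members of highest fold, 4 were at such a start, among them the DANCR start on chromosome 4. It had pileups of 249 and 216, a depth-scaled ratio of 1.17 (0.968 to 1.41) and a fold of 28.2. The DANCR window printed above holds 3 SP/KLF matches and no AP-1 match.

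Motifs were counted within 100 bp of the summit, on both strands, in all 3 kinds of peak. AP-1 was the most frequent of the 17 motifs in members, in 1053 of them (27.7%, 26.3 to 29.1), against 32.5% (31.9 to 33.1) of narrower distal peaks and 5.14% (4.66 to 5.66) of wide peaks near starts. Within that window, then, wide members held AP-1 less often than narrower distal peaks. Over the whole peak the order was the other way, with 52.1% (50.5 to 53.6) of members and 43.9% (43.3 to 44.5) of narrower distal peaks holding a match and 16.3% and 7.11% holding more than 1. A wide peak has more bases to match, and per kb of peak members had 1.00 match and narrower distal peaks 1.48. TEAD was found in 6.55% (5.80 to 7.38) of members and 5.68% of narrower distal peaks, and RUNX in 7.49% and 6.95%, with overlapping intervals in both cases. SP/KLF was found in 6.07% (5.36 to 6.88) of members, 1.60% (1.45 to 1.76) of narrower distal peaks and 32.1% near starts. CAGNGGGCG, a part of the site of the insulator factor CTCF, was found in 2.52% (2.07 to 3.07) of members and 1.27% (1.15 to 1.42) of narrower distal peaks. Of the 612 members at non-coding starts 5.88% (4.28 to 8.04) held it, against 1.88% (1.46 to 2.41) of the other 3192. The glucocorticoid receptor core ACANNNTGT was less frequent in members, at 6.44% (5.70 to 7.27) against 8.31% (7.98 to 8.65). The motif of GRHL factors, which open epithelial enhancers, was rare in every kind of peak. It was found in 2 members (0.0526%), 0.0601% of narrower distal peaks and 0.0763% of all shared peaks.

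The motifs did not lie at the deposited summits. Of 2196 AP-1 matches within 250 bp of members' summits, 1678 (76.4%, 74.6 to 78.1) were on the side of lower coordinates. Among narrower distal peaks the share was 83.0% (82.4 to 83.6), and their 25-bp bin with the most AP-1 matches was centred 75 bp below the summit, with 3.64 matches per kb against 1.61 at the summit and 0.319 at the same distance above it. The All gRNA list had the same offset, with 80.4% of matches below the summit over all its peaks and 81.2% over all peaks of the No gRNA list. SP/KLF matches near starts were likewise on the lower side in 65.9% of cases, with most matches 75 bp below the summit. The offset had the same sign in both lists and moves motif counts. Whether it has any bearing on the height ratios was not tested. In windows of the same size centred 75 bp below the summit, a choice made after seeing the data, AP-1 was found in 35.9% (34.3 to 37.4) of members and 41.5% (40.9 to 42.1) of narrower distal peaks. TEAD was then found in 7.49% (6.70 to 8.37) and 6.43% (6.14 to 6.73), SP/KLF in 6.49% and 1.78%. The order of the 3 kinds of peak did not change for these 3 motifs.

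AP-1 was more frequent in members of higher fold. In the fifth of members with the lowest No gRNA fold (3.70 to 9.54), 20.8% (18.0 to 23.8) held the motif within 100 bp of the summit, and the share did not fall in any following class, with 28.3% in the middle class, 32.7% in the fourth and, at a fold of 16.8 to 31.9, 33.6% (30.4 to 37.1). In windows centred 75 bp below the summit the lowest and the highest class had 25.2% and 43.2%. TEAD had no such order, with 6.04%, 4.60%, 7.24%, 8.15% and 6.70%, nor had RUNX, with 6.18%, 9.33%, 7.37%, 7.49% and 7.10%.

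The E-box CAGGTG, to which ZEB1 and SNAI factors bind, was more frequent in members that were relatively higher in All gRNA. Over 5 classes of members by rising ratio, it was found in 7.62%, 6.83%, 7.89%, 11.0% and 12.5% (10.3 to 15.0). The control E-box CAGCTG, which differs in its middle bases, had 15.6%, 12.9%, 16.2%, 14.2% and 10.4% (8.41 to 12.8). TEAD had 7.88% (6.17 to 10.0) in the lowest class and 4.86% (3.55 to 6.63) in the highest. In windows centred 75 bp below the summit TEAD had 9.99% (8.05 to 12.3) and 4.99% (3.66 to 6.78). AP-1 within 100 bp of the summit had 26.8% in the lowest and 27.7% in the highest class, and RUNX 8.54% and 7.62%. The class of highest ratio also held lower peaks, with a median pileup of 28.0 against 47.0 in the first class. Among the members with a pileup above 40, the 5 classes had CAGGTG in 7.30%, 6.10%, 6.59%, 6.59% and 14.1% (11.1 to 17.8), with median pileups of 57.0 to 73.0. In windows centred 75 bp below the summit the top class of these had 10.5% (7.86 to 13.8), and the first 4 had 4.88% to 7.56%. With members picked from the All gRNA list, the share went from 8.41% (6.33 to 11.1) in the lowest to 19.3% (16.2 to 22.9) in the highest class. Those regions were picked by their width in All gRNA, so regions wide only there can enter, and the steeper change is not a separate check. The link of CAGGTG to gain in All gRNA was already known from other peaks of these lists when members were chosen, so it is not independent support. Over all members CAGGTG stood at 9.17% (8.30 to 10.1), below the 11.2% (10.8 to 11.6) of narrower distal peaks.

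A few members held rows of 1 motif. A member of 1291 bp in an exon of the transcribed pseudogene AFG3L1P (chr16:89994861-89996151, nearest DBNDD1) held 43 AP-1 matches, and the member with the next most held 16. Its pileups were 31 and 17, a ratio of 0.738 (0.383 to 1.38). A member of 1061 bp in an intron of CLPTM1L (chr5:1327570-1328630) held 21 TEAD matches, where no other member held more than 3. Its pileups were 151 and 52, a ratio of 0.463 (0.331 to 0.639), past 2-fold lower. The third widest member, nearest LYSMD4 (chr15:99926997-99928702), held 59 SP/KLF matches, had pileups of 74 and 48 and a ratio of 0.873 (0.594 to 1.27). Of the 31-base words around the summits of the AP-1 and TEAD rows, 78.9% and 81.3% occurred more than once in the genome, and the number of units in SUM159 DNA was not tested.

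Members lay close to each other in few cases. Another member was within 12 kb of 317 members (8.33%, 7.50 to 9.25), and joining members at that gap gave 3634 groups, of which 3487 held 1 member, 131 held 2, 13 held 3, and 3 groups held 4, 5 and 7. A member lay within 12 kb of fewer narrower distal peaks, 6.68% (6.39 to 6.99). Counting distal peaks of any width, 1559 members (39.4 to 42.6%) and 43.9% (43.3 to 44.5) of narrower distal peaks had a neighbour within 12 kb. Members had one less often within 5 kb, at 16.8% against 25.0%, and more often within 50 kb, at 78.5% (77.2 to 79.8) against 76.7% (76.2 to 77.2).

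The group of 7 lay in PVT1, a long non-coding RNA next to MYC, at chr8:127890020-127932271, with No gRNA pileups of 132 to 923, All gRNA pileups of 72 to 415 and log2 ratios of -0.86 to -0.25. A group of 3 on the same gene (chr8:127851538-127860505) held the widest member of all, at 1771 bp. The groups of 5 near FCGR2A (chr1:161440236-161470212), of 4 near CCDC200 (chr17:43266559-43290876) and of 3 near CROCC (chr1:16888963-16905661) lay wholly or partly in sequence with copies elsewhere: a median of 100%, 100% and 33.3% of the 31-base words around their summits occurred more than once in the genome. Among single-copy groups away from MYC, that of LIF stood out after the values were seen (chr22:30196031-30213360). LIF, a cytokine of the interleukin 6 family, had 3 members 33.5 to 50.3 kb from its start, with No gRNA pileups of 103, 76 and 29 and All gRNA pileups of 41, 31 and 13. All were lower in All gRNA, with log2 ratios of -0.90, -0.87 and -0.73, and the intervals of the first pair excluded 1 while that of the lowest did not.

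Copies matter for the list as a whole. In 364 members (9.57%, 8.67 to 10.5), more than 50% of the 31-base words within 100 bp of the summit occurred more than once on the chromosomes, against 5.74% (5.47 to 6.03) of narrower distal peaks and 1.73% of wide peaks near starts. Their median width of 708 bp was close to the 697 bp of the other 3440 members, and their median log2 ratio was -0.13 against -0.24. A read from such a place cannot be assigned to 1 copy with certainty. They included 19 of 21 members nearest TPTE, all 6 nearest CCDC200 and all 5 nearest FCGR2A.

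The region around MYC held the tallest members. Within 1 Mb of the MYC start, 43 members ran from chr8:126951031 to 128198000, through the non-coding genes PCAT1, CASC19, CASC8 and PVT1, which alone held 23. Their median No gRNA pileup was 365 (range 22 to 2181), their median local background 27.1 (3.58 to 227) and their median width 851 bp. The other members had a median background of 2.32, and here too a peak's own reads can enter it. The fold, which divides by that background, had a median of 14.4 in the region and 12.8 elsewhere. Of 111 members with a background of 10 or more, 39 were in this region and 34 others had repeated windows. Reads per copy of DNA and the number of copies cannot be told apart in these files.

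Downstream of the MYC start, 24 of 25 members were lower in All gRNA, with a median log2 ratio of -0.34 (range -0.86 to 0.05). All 25 had a No gRNA pileup of at least 123, and of all members above 100 fragments 87.4% were lower, with a median of -0.30. Upstream, 12 of 18 were lower, with a median of -0.10 (-0.78 to 1.71), and the highest of these was the peak described above that went from 128 to 311. Past 2-fold that peak was the only 1 of the 43 in either direction. The tallest member of the list (2181 in No gRNA, 1407 in All gRNA) lay 214 kb downstream, with a log2 ratio of -0.20.

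By nearest protein-coding gene, the members spread over 2633 of 19618 genes (13.4%), and 1896 of these had a single member. MYC had the most, 27, followed by TPTE with 21, 19 of them in repeated sequence and up to 4919 kb away, and POU5F1B, a retrogene upstream of MYC, with 16. PPIAL4H, TRIB1, USP24 and FOXD4L5 had 7 each, and NBPF1, CCDC200, NAV2, DEFB115, EXT1, OSR1 and CDH18 had 6. Another 20 genes had 5 each, among them FCGR2A with the largest summed width. Of the genes with 6 or more, TPTE, PPIAL4H, FOXD4L5, NBPF1 and CCDC200 had most of their members in repeated windows. TRIB1, a pseudokinase that steers protein degradation, had 7 single-copy members 19.5 to 231 kb from its start, with pileups of 15 to 116, of which 5 were lower in All gRNA (median log2 ratio -0.52). NAV2, a gene of neuron guidance, had 6 with pileups of 42 to 104, 5 of them lower (median -0.64). EXT1, an enzyme of heparan sulfate synthesis, had 6 with pileups of 18 to 55, all lower (median -0.37). OSR1, a zinc finger factor of mesoderm development, had 6 with pileups of 25 to 88, 4 of them lower (median -0.54).

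Genes of 13 lists were then read against the 13.4% of all genes and against the 14.3 members per 100 narrower distal peaks over all genes. Directions at single genes below stand beside the 69.2% of all members that were lower in All gRNA. A gene in a wide gap has more distal peaks of either kind, and the second measure allows for that. The AP-1 and related bZIP factors had 13 members at 8 of 16 genes, 31.7 per 100 narrower peaks. JUN had 3 of these, at 31.5, 65.1 and 120 kb, with No gRNA pileups of 43, 111 and 63 and All gRNA pileups of 29, 88 and 34. The depth-scaled JUN ratios were 0.908, 1.07 and 0.726, and all 3 intervals included 1. BACH1 also had 3 members, BACH2 2 and FOSL2 1.

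TEAD factors, YAP and TAZ and their targets had 18 members at 11 of 22 genes (18.8 per 100), led by PTPN14, TGFB2, AMOTL2 and ARHGAP29. TGFB2, a TGF-beta ligand, had an intronic member of pileups 63 and 33, with AP-1 and RUNX matches, and others of 83 and 55 and of 20 and 15. After scaling for depth their ratios were 0.705, 0.892 and 1.01, with intervals that included 1. The TGF-beta pathway list had 27 members at 13 of 25 genes (17.9 per 100). Its genes with most members were ACVR2A, SKI, SMAD7 and TGFBR3, with 3 each.

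The mesenchymal structure and matrix list had 29 members at 16 of 33 genes (19.0 per 100). The basement membrane collagens COL4A2 and COL4A1 had 4 each, and COL6A3 had 3. Of the 4 COL4A1 members, 3 were higher in All gRNA, with ratios of 1.11 to 1.31 whose intervals all included 1. The factors of the epithelial-mesenchymal transition themselves had 5 members at 4 of 12 genes: 2 nearest TWIST2 and 1 each nearest ZEB2, FOXC1 and TWIST1. The 2 measures differed here. The share of genes, 33.3%, was above the 13.4% of all genes. The 5 members beside 67 narrower distal peaks made 7.46 per 100, below the 14.3 over all genes. ZEB1, the targeted gene, and SNAI1 and SNAI2 had none.

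Receptor tyrosine kinases and their ligands had 22 members at 11 of 26 genes (15.8 per 100). EGFR, the epidermal growth factor receptor, had 5, with No gRNA pileups of 34, 50, 24, 114 and 47 and All gRNA pileups of 22, 19, 12, 94 and 39. Their depth-scaled ratios were 0.871, 0.511, 0.673, 1.11 and 1.12. Only the second of them, at chr7:54985418-54986038, had an interval that excluded 1 (ratio 0.511, 0.285 to 0.883). IGF1R, the insulin-like growth factor receptor, had 5, of which 4 were intronic. All 5 were lower in All gRNA, and for 3 the interval excluded 1. The tallest, at chr15:98727511-98728141, had pileups of 133 and 67 and a ratio of 0.678 (0.498 to 0.916).

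Caveolae and adhesion genes had 18 members at 7 of 18 genes (19.8 per 100). LPP, a focal adhesion protein, had 5 within its own introns and exons, of which 4 were lower in All gRNA, and TNS3, a tensin, had 4, all lower (median log2 ratio -0.49). The cytokine list had 7 members at 3 of 19 genes (23.3 per 100), 3 of them at LIF, 2 at IL1R1 and 2 at CSF2. The glucocorticoid response list had 12 at 7 of 12 genes (17.4 per 100). SGK1, a kinase induced by glucocorticoids, had 3, with pileups of 38, 50 and 91 in No gRNA and 25, 41 and 60 in All gRNA. Scaled for depth, the SGK1 ratios were 0.885, 1.10 and 0.887, with intervals that all included 1. KLF9, a zinc finger factor also induced by glucocorticoids, had 3, of which the pair 149 and 187 kb away, in introns of TRPM3, fell from 36 to 9 and from 61 to 19, ratios of 0.336 (0.143 to 0.712) and 0.419 (0.236 to 0.711).

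The basal and stem-like list had 51 members at 10 of 19 genes (33.3 per 100), but 27 of them were MYC's, and without the region around MYC it had 24 (15.7 per 100). SOX9, a stem cell factor of the breast, had 4, with No gRNA pileups of 24, 99, 57 and 73 and All gRNA pileups of 22, 41, 24 and 37. RUNX1 had 4 as well.

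Epithelial identity genes had 14 members at 9 of 37 genes, against 70 narrower distal peaks. Per 100 narrower peaks, that rate was above the 14.3 over all genes. It was also slightly above the 19.0 of the mesenchymal structure and matrix list, so this measure did not favour mesenchymal over epithelial genes. The share of genes was lower than the 16 of 33 in the mesenchymal list. GRHL3 and CLDN1 had 3 members each and KLF5 had 2. The 3 GRHL3 members, 24.2 to 37.4 kb from its start, had pileups of 13 to 40 in No gRNA and 9 to 33 in All gRNA. Scaled for depth, their ratios were 1.27, 0.932 and 1.11, with intervals that included 1. GATA3, a factor of the luminal breast lineage, was nearest to 4 members, which had ratios of 0.832 to 0.995 with intervals that included 1. The list of blood, liver and nerve markers had 1 member at 1 of 20 genes (3.57 per 100), nearest CDH5, a gene of endothelial cells. Over the 13 lists, nearest genes were assigned by distance alone, and which gene a peak acts on was not measured.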

How the data were processed

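ATAC-seq reads of 2 libraries, 1 a group, were trimmed with fastp, aligned to hg38 with Bowtie2 and stripped by the authors of duplicate, mitochondrial and excluded-region reads, and the authors called peaks in each library with MACS2 without a control (reads shifted and extended). Tool versions are not given in the sources used here. The deposited lists hold each peak's position and summit offset, a fold enrichment (a ratio), −log10 p and −log10 q values, and a score; the deposited score is 10 times the −log10 q for nearly all peaks and was not used further.

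Members and gene lists were chosen with earlier results of these data known. The lists held 74757 (No gRNA) and 75217 (All gRNA) peaks. The whole-number summit pileup was solved from the fold and the −log10 p for 100% of peaks, and the depth ratio of 0.743 (All gRNA to No gRNA) came from the lowest backgrounds. Read totals are not in the lists. Ratios have exact conditional binomial 95% intervals and shares Wilson 95% intervals, for counting error only, without correction for the number of peaks. Where a member had several partners, the strongest gave its height and all gave its width. Starts were those of 88858 GENCODE 44 transcripts typed protein-coding, and "in an intron" refers to the summit. Motifs were exact matches on both strands. Peaks with repeated sequence were marked from 31-base words of hg38. Recovery of pileups and intervals was tested on simulated data. Named members were the 10 widest, the 10 of highest fold, the 5 highest and 5 lowest ratios past 2-fold and the 5 largest groups; named genes were the 15 with most members and up to 4 per list. The full count of the luminal list is not reported here. Python 3.11.15, numpy 2.4.6, pandas 2.3.3 and scipy 1.17.1 were used.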

Additional observations from a re-analysis of the deposited data

How the results depend on the processing

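No paired analysis was possible because the groups hold a single library each. Of 50 alternatives, 20 left a count within 1.5 times or a value within its interval. The number of members was 7030, 980 and 260 at a width of 500, 800 and 1000 bp, 2026 beyond 50 kb and 2132 with starts of every biotype. The median log2 ratio was -0.13 scaled by all shared peaks, -0.20 from fold, -0.14 with the lists exchanged and -0.31 at 1000 bp. Members past 2-fold lower were 122 and 66 with that scaling and with exchanged lists, and higher 53 and 64. The median width ratio was 0.836 for the strongest partner, and with the lists exchanged it turned to 1.01. The AP-1 share was 13.6% within 50 bp, 37.2% within 150 bp, 52.1% over the whole peak, 23.1% at 1000 bp, 29.4% without repeated windows and 35.9% centred 75 bp below the summit, and the TEAD share 3.31% within 50 bp, 17.7% over the whole peak and 7.49% centred 75 bp below. Neighbouring members were 2.08% at 5 kb, 25.8% at 50 kb, 13.0% at a width of 500 bp, 1.54% at 1000 bp and 7.21% without repeated windows. Introns of every biotype held 51.7%. The alternatives without repeated windows, without the MYC region, with windows centred below the summit and with every transcript of protein-coding genes (3416 members) were chosen after seeing the data. Pileups under 20 leave intervals wide, and with 1 library a group no value separates the guides from the library.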

Other observations

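Genes that dampen ERK signalling, a set picked after the values were seen, had many wide distal peaks nearby. Of 12 such genes (SPRY1, SPRY2, SPRY4, SPRED1, SPRED2, SPRED3, DUSP4, DUSP5, DUSP6, ERRFI1, PHLDA1 and IER3), 9 were nearest to at least 1, with 30 members in all, 32.6 per 100 narrower distal peaks where all protein-coding genes had 14.3. In All gRNA 21 of the 30 were lower, near the 69.2% of all members, with a median log2 ratio of -0.14 against -0.23. SPRY1, a Sprouty inhibitor of receptor tyrosine kinases, had 5 members, all lower in All gRNA. The tallest, 188 kb from its start, had pileups of 134 without guides and 62 with them, a depth-scaled ratio of 0.623 (0.453 to 0.847). The member 43.9 kb away went from 33 to 7, a depth-scaled ratio of 0.285 (0.107 to 0.656). SPRY2 had 4 members, also all lower. DUSP4 and DUSP6, phosphatases of the ERK family, had 4 each, with 3 and 2 of them lower. SPRED1, SPRED3 and IER3 had none. Since the genes were picked for their members, the count carries no test.

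Members were unevenly spread over chromosomes. Per 100 narrower distal peaks they numbered 23.1 on chromosome 21, where 21 of 68 had repeated windows, 21.5 on chromosome 19, where none of 53 had, and 10.5 on chromosome 18.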
